A study of Mus musculus with 4 samples.

Results

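The genes of glutathione metabolism were followed in kidney cells of E18.5 mouse embryos sorted with Dolichos biflorus agglutinin (DBA), a lectin that labels ureteric epithelium. Members were taken by gene symbol alone: the glutathione transferases (Gsta, Gstk, Gstm, Gsto, Gstp, Gstt, Gstz, Mgst), the glutathione peroxidases (Gpx), the gamma-glutamyltransferases (Ggt) and the enzymes of glutathione synthesis and recycling (Gclc, Gclm, Gss, Gsr, Ggct). These were 41 of the 38201 genes listed, each with its expression in FPKM, a fragment number scaled to transcript length and library size. The study asked what the loss of the epithelial splicing factors Esrp1 and Esrp2 does to these cells. The double knockout group (DKO, Esrp1 -/-, Esrp2 -/-) and the control group (Esrp1 +/+, Esrp2 -/-) had 2 libraries each, so Esrp2 was deleted in all 4 libraries and Esrp1 in the DKO only. Each library was made from poly(A) RNA pooled from 3 embryos and sequenced with strand information.

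Glutathione is a tripeptide of glutamate, cysteine and glycine. Glutamate-cysteine ligase and glutathione synthetase build it, peroxidases spend it on hydrogen peroxide and lipid hydroperoxides, transferases join it to reactive compounds, and gamma-glutamyltransferase at the cell surface breaks it down again so that its amino acids can be recovered. In the kidney the proximal tubule is the main site of this breakdown and of the making of the secreted plasma peroxidase, while the ureteric bud gives rise to the collecting ducts.

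Esrp1 was listed at 8.65 and 7.29 FPKM in DKO replicates 1 and 2 and at 27.0 and 31.4 FPKM in control replicates 1 and 2. The 16 markers of ureteric and collecting duct epithelium were all present and summed to between 1316 and 1890 FPKM per library. The 20 proximal tubule markers were present too, at 364 to 408 FPKM summed in the DKO pair and 775 to 899 in the controls. The 12 macrophage markers summed to 525 to 560 FPKM in the DKO pair and 1023 to 2148 in the controls, and the 12 stroma markers to 238 to 375 and 120 to 159.6. Among these 4 lists no marker was at 0 in every library. In bulk RNA fewer cells of a type and less RNA per cell cannot be told apart. Depth relative to DKO replicate 1, read from the steps between the lowest FPKM values, was 1.09 for DKO replicate 2, 0.507 for control replicate 1 and 1.10 for control replicate 2.

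No member passed the main test. Genes were compared with limma on log2(FPKM + 0.5), two-sided, with Benjamini-Hochberg adjustment over the 18884 genes that averaged above 0.1 FPKM in at least 1 group, and a gene was called at an adjusted p under 0.05 and a ratio of averages of at least 2. Of the 41 members 38 were above that minimum. Called lower were 0 of them, beside 0.0053% of all genes, and called higher 0, beside 0.0159%, which is 0.0212% in either direction. At an unadjusted p under 0.05 in limma there were 6 lower members (Gpx3, Ggt1, Gpx1, Gstz1, Gsta1 and Gpx6), beside 7.35% of all genes, and 1 higher member (Gpx7), beside 3.35%. Both DKO values lay below both controls for 15 members, beside 22.6% of all genes, and above them for 3, beside 20.8%. The groups overlapped for the other 20. On a TPM scale, which brings every library to the same sum, these counts were 7 below and 6 above, beside 13.8% and 32.9% of all genes. The median log2 difference of the 38 members, DKO minus control, was -0.13, and that of all genes tested was -0.0092. An exact permutation test of 2 libraries against 2 has a smallest two-sided p of 0.333, so a single gene cannot pass by it.

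**Figure D1:**
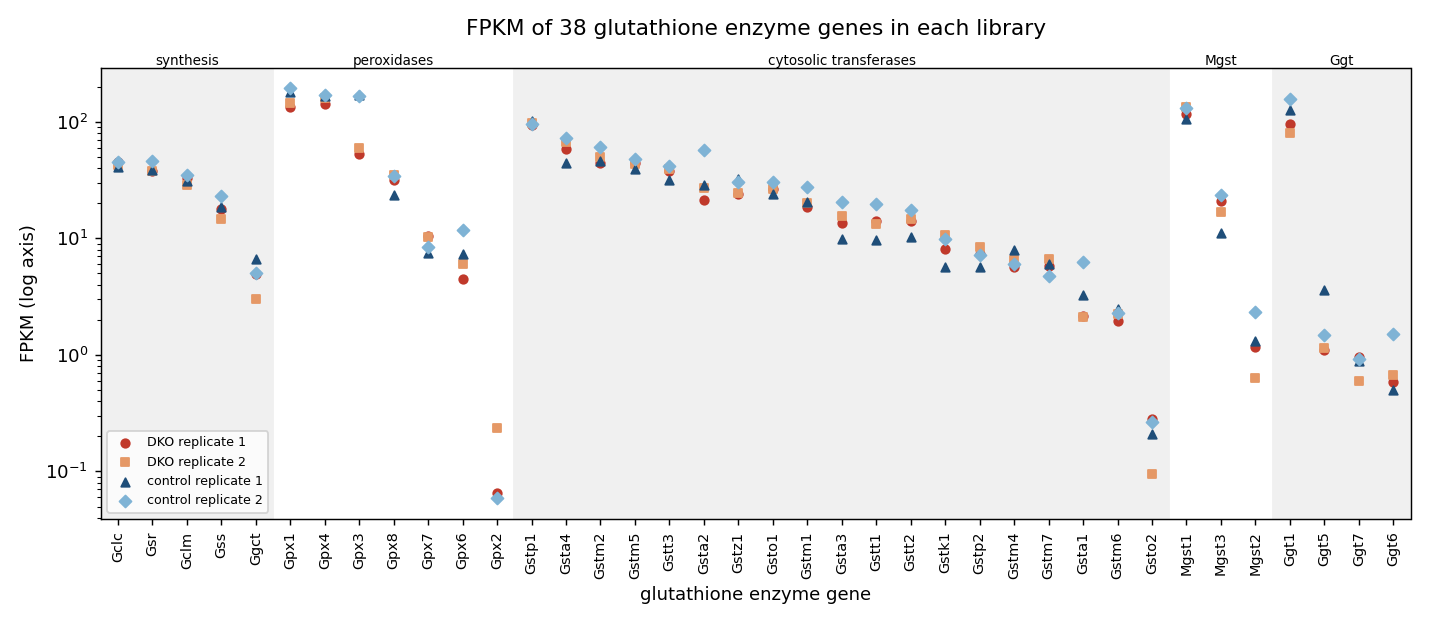
FPKM (log axis) of the 38 glutathione enzyme genes above the minimum, by role and then by mean level, with 1 symbol per library and values of 0 not drawn (Gpx2 in control replicate 1). Levels run from under 1 FPKM for Gpx2, Gsto2, Ggt6 and Ggt7 to over 100 for Gpx1, Gpx4, Mgst1, Ggt1 and Gpx3, and for most genes the 4 libraries lie close together relative to the gap in Gpx3.

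The widest difference was in Gpx3, the glutathione peroxidase that is secreted into plasma. Its level was 52.7 FPKM in DKO replicate 1, 59.8 in DKO replicate 2, 172 in control replicate 1 and 168 in control replicate 2. The replicates of each group lay close together and the groups were far apart. The averages were 56.3 ± 5.02 FPKM in the DKO pair and 169.6 ± 2.91 in the controls (SD, n = 2 each), a 3.01-fold lower average in the DKO. The log2 difference was -1.59 with a standard error of 0.108, and limma gave an unadjusted p of 3.02e-05 and an adjusted p of 0.0816, which missed the threshold. Of all genes tested 6 had a smaller p, and 4 passed at an adjusted p under 0.05. No other member had an absolute log2 difference as large. Gpx3 lies on chromosome 11 of mm10 from 54902453 to 54910377 on the plus strand, as a gene of the GENCODE M21 annotation.

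The peroxidases differ at the catalytic residue, and 8 of 8 are shown here at that codon, since the selenium-dependent enzymes hold the member with the widest difference. Each line gives bases of the coding sequence from GENCODE M21 on mm10, 5′ to 3′, with the catalytic codon in capitals. TGA in this frame is read as selenocysteine, and TGC and TGT as cysteine.
Gpx1: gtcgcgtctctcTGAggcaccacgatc
Gpx2: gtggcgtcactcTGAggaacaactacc
Gpx3: gtagccagctacTGAggtctgacagac
Gpx4: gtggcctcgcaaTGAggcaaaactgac
Gpx5: gtggctacctatTGCggtctgacaatc
Gpx6: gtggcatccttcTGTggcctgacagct
Gpx7: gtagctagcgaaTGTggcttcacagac
Gpx8: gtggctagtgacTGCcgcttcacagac
The codon is number 73 of Gpx3, 47 of Gpx1 and 129 of the Gpx4 coding form used. By these letters Gpx1 to Gpx4 are selenoproteins in the mouse, and Gpx5 to Gpx8 use cysteine.

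Among the selenium-dependent peroxidases, the abundant members had lower DKO averages, but only Gpx3 by more than 2-fold. Gpx1, which clears hydrogen peroxide in the cytosol and mitochondria, stood at 135 and 144 FPKM in DKO replicates 1 and 2 and at 179.9 and 195 in control replicates 1 and 2. These groups did not overlap, and the average was 1.34-fold lower in the DKO (log2 difference -0.42, standard error 0.108, adjusted p = 0.384 from limma). Gpx4, which reduces hydroperoxides inside membranes and protects cells from ferroptosis, was at 142 and 160.5 against 167 and 169.7 FPKM. The groups did not overlap, with DKO replicate 2 close to the controls, and the log2 difference was -0.15 (standard error 0.111, adjusted p = 0.667 from limma). Gpx2, the peroxidase of the gut lining, was near the limit of detection, at 0.0649 and 0.236 FPKM in the DKO pair and at 0 and 0.0588 in the control pair. At these low values it is still counted among the 3 members above both controls. With a minimum group average of 1 FPKM that count was 2, beside 21.1% of all genes.

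The cysteine peroxidases were split. Gpx6, a close relative of Gpx3 whose coding sequence is 69.2% identical to it, was at 4.52 and 6.03 FPKM in the DKO pair and 7.33 and 11.8 in the control pair (log2 difference -0.78, standard error 0.286, adjusted p = 0.451 from limma). Gpx7, a peroxidase of the endoplasmic reticulum, was at 10.6 and 10.3 FPKM in the DKO pair and 7.42 and 8.36 in the control pair, and its average was 1.32-fold higher (log2 difference 0.38, standard error 0.148, adjusted p = 0.466 from limma). Gpx8, another peroxidase of that compartment, overlapped, at 32.0 and 35.1 against 23.8 and 34.6 FPKM. Gpx5, known from the epididymis, was listed at 0 in all 4 libraries. The stroma markers, which moved in the direction of Gpx7, lay above both controls for 12 of 12 genes. Endothelium markers did so for 7 of 10 genes, beside 20.8% of all genes. The part of either list in the Gpx7 values was not tested.

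**Figure D2:**
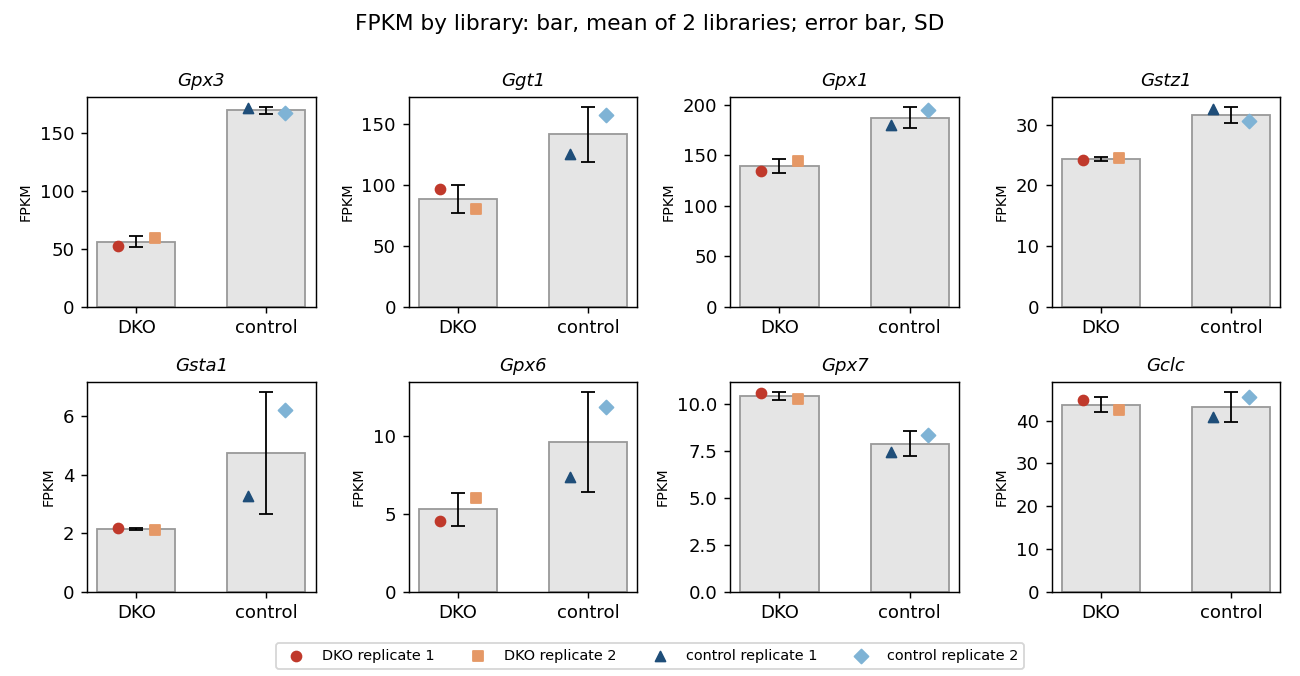
FPKM by library for 8 members, with bars for the mean of 2 libraries, error bars for the SD and 1 point per library. Gpx3 separates most, from 56.3 to 169.6 FPKM, Gpx7 is the member with higher DKO values, and Gclc, from the synthesis enzymes, has equal averages within its spread.

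The gamma-glutamyltransferases had lower DKO averages in 4 of 4 genes, and Ggt1 carried almost all of the level. Ggt1, the enzyme of the brush border that starts the breakdown of glutathione outside the cell, was at 96.7 and 80.5 FPKM in the DKO pair and 126 and 157 in the control pair. The groups did not overlap, although the replicates of each group differed. The average was 88.6 ± 11.5 FPKM in the DKO pair and 142 ± 22.4 in the controls (SD, n = 2 each), 1.60-fold lower (log2 difference -0.67, standard error 0.161, adjusted p = 0.380 from limma). Ggt5, which cleaves leukotriene C4 and lies next to Ggt1 on chromosome 10, was at 1.10 and 1.14 FPKM in the DKO pair and 3.60 and 1.49 in the control pair. Control replicate 1 set most of that difference (log2 difference -0.82, standard error 0.401, adjusted p = 0.553 from limma), and was also the library with the most macrophage marker RNA. The log2 difference of Ggt5 was -0.30 without control replicate 1, and the part of the macrophage RNA was not tested.

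Ggt6 and Ggt7, less studied members of the family, were under 1 FPKM in most libraries. Ggt6 was at 0.587 and 0.675 FPKM in the DKO pair and 0.503 and 1.52 in the control pair. Ggt7 was at 0.954 and 0.595 against 0.886 and 0.916 FPKM. Both overlapped between the groups. In GENCODE M21 the plus-strand Ggt1 gene spans 75561604 to 75586200 of chromosome 10 and Ggt5 follows from 75589340 to 75617200.

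Gpx3 and Ggt1 are genes of the proximal tubule, whose markers were lower in the DKO libraries as well. All 20 of the proximal tubule markers lay below both controls, beside 22.6% of all genes. Their median log2 difference was -0.80, and in limma Gatm alone among them passed (adjusted p = 0.0431). The part of these markers in the Gpx3 and Ggt1 values was not tested. In size the Gpx3 difference was passed by 2 of the 20 markers, Gatm and Kap, and that of Ggt1 by 15. Of 8 loop and distal tubule markers tested 3 lay below both controls and 0 above, beside 22.6% and 20.8% of all genes. The other 5 overlapped, and the median log2 difference of the 8 was -0.38. Slc12a3, among the 3 below both controls, was at -1.88, a larger difference than that of Gpx3. Set against the summed FPKM of the 20 proximal tubule markers, Gpx3 was lower in the DKO also on this scale. It was at 12.9% and 16.4% of the sum in the DKO pair and at 22.1% and 18.6% in the control pair. Ggt1 was at 23.7% and 22.1% of the sum in the DKO pair and 16.2% and 17.5% in the control pair, which is higher in the DKO. Gpx1 and Gstz1 were also higher on this scale, and Gpx6 and Gsta2 overlapped. Without Kap, a marker with 4.50 and 16.8 FPKM in the DKO libraries against 131 and 132 in the controls, Gpx3 was at 13.1% and 17.2% against 26.7% and 21.8% and kept this order. The marker sum was itself lower in the DKO pair, at 408 and 364 FPKM against 775 and 899 in the control pair. A gene whose difference was smaller than that of the sum is therefore higher on this scale by construction. A gene with a larger difference, as Gpx3 had, is likewise lower on average by construction. This scale was chosen after the values were seen, and it carries no test.

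**Figure D3:**
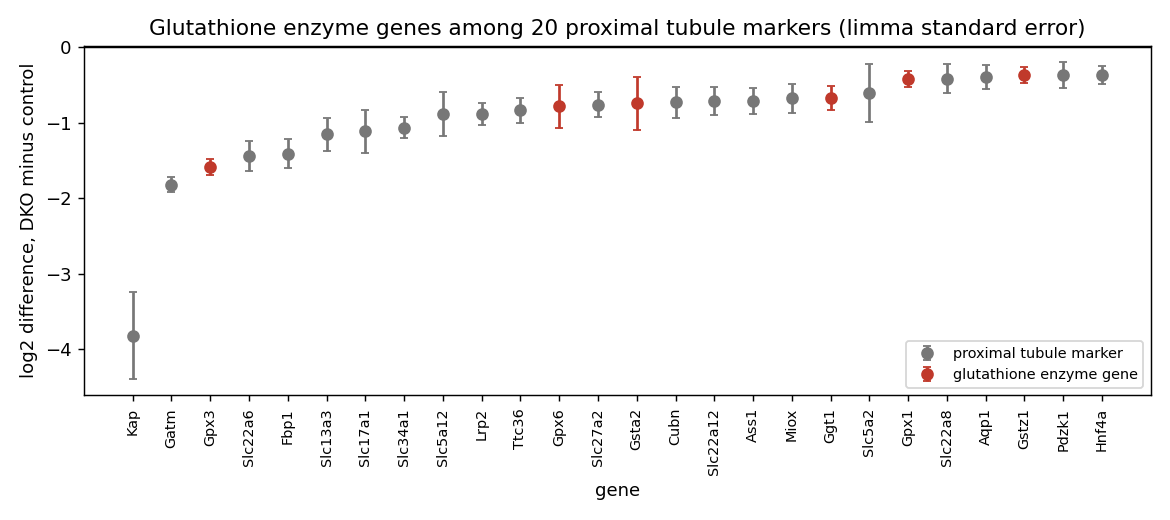
Log2 difference of log2(FPKM + 0.5), DKO minus control, with limma standard errors, for 20 proximal tubule markers and 6 glutathione enzyme genes in order of size. The 6 all had lower DKO averages. Members near 0 or higher, such as Gclc at 0.02 and Gsta4 at 0.14, are not drawn, nor is Gsta1 at -0.92. Gpx3 at -1.59 follows Kap and Gatm, whereas Ggt1 at -0.67, Gpx1 at -0.42 and Gstz1 at -0.37 lie in the range of the smaller marker differences.

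Of the enzymes that make and recycle glutathione, Gclc, Gclm and Gsr differed little between the groups. Gclc, the catalytic subunit of glutamate-cysteine ligase and the rate-limiting enzyme of synthesis, was at 44.9 and 42.5 FPKM in the DKO pair and 40.7 and 45.6 in the control pair (log2 difference 0.02, standard error 0.108, adjusted p = 0.957 from limma). Gclm, its modifier subunit, was at 32.7 and 28.5 against 31.3 and 35.1 FPKM (log2 difference -0.12, standard error 0.125, adjusted p = 0.748), and the sign turned on the TPM scale. Gsr, the reductase that restores oxidized glutathione with NADPH, was at 38.2 and 38.2 against 38.6 and 45.9 FPKM (log2 difference -0.14, standard error 0.121, adjusted p = 0.707). Both DKO values of Gsr lay below the controls, but control replicate 1 was almost level with them.

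Gss, the synthetase that adds glycine, and Ggct, a cyclotransferase that breaks down gamma-glutamyl amino acids, had DKO averages at 0.775 and 0.68 times the control averages. Their groups did not overlap, and neither passed (adjusted p = 0.550 and 0.595 from limma). For Ggct the values were 4.92 and 3.04 FPKM in the DKO pair and 6.64 and 5.08 in the control pair, so that DKO replicate 1 was close to control replicate 2. None of the 5 genes had an unadjusted p under 0.05.

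Of the 21 cytosolic transferases 19 were above the minimum, and most had similar levels in both groups. Both DKO values lay below both controls for 5 and above them for 1, beside 22.6% and 20.8% of all genes. The groups overlapped for 13, and the median log2 difference was -0.027. Gstp1, the pi-class enzyme, was the most abundant, at 94.1 and 98.1 FPKM in the DKO pair and 102 and 96.5 in the control pair (log2 difference -0.05, standard error 0.0958, adjusted p = 0.875 from limma), with the opposite sign on the TPM scale. Gsta4, which detoxifies 4-hydroxynonenal from oxidized lipid, was at 58.7 and 67.3 against 44.6 and 72.5 FPKM. For Gstm2, the leading mu-class gene, the values were 44.6 and 50.3 against 46.1 and 60.5 FPKM. In Gsta4 the control libraries lay on either side of both DKO libraries.

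The cytosolic transferases with the widest differences were a pair of alpha-class genes and Gstz1. Gsta1 was at 2.18 and 2.13 FPKM in the DKO pair and 3.26 and 6.22 in the control pair (log2 difference -0.92, standard error 0.333, adjusted p = 0.443 from limma). Gsta2 was at 21.4 and 27.1 FPKM in the DKO pair and 28.6 and 57.5 in the control pair (log2 difference -0.74, standard error 0.348, adjusted p = 0.538). The controls of both differed by about as much as the groups did, and control replicate 2 was the high library in each. The log2 difference of Gsta2 was -1.24 without control replicate 1 and -0.24 without control replicate 2, and that of Gsta1 -1.34 and -0.50. The coding sequences of Gsta1 and Gsta2 are 97.6% identical, so the deposited FPKM may split shared fragments between them, and they count as uncertain apart. The same holds for Gstp1 and Gstp2, at 98.1%.

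Gstz1, the zeta-class enzyme that acts as maleylacetoacetate isomerase in the breakdown of tyrosine, was at 24.2 and 24.5 FPKM in the DKO pair and 32.5 and 30.7 in the control pair. Its replicates were close, and its average was 22.9% lower in the DKO (log2 difference -0.37, standard error 0.101, adjusted p = 0.384 from limma). The theta-class genes Gstt1, Gstt2 and Gstt3 overlapped in 3 of 3 cases, with ratios of averages from 0.925 to 1.05. The mu-class genes had ratios from 0.81 to 1.15 in 6 of 7 members tested. Gstm3 and Gstt4 did not reach the minimum, with at most 0.112 and 0.139 FPKM in any library. Gsto1, which reduces dehydroascorbate, was at 26.6 and 26.6 against 24.1 and 30.3 FPKM. Gstp2 was the transferase with both DKO values above the controls, at 7.28 and 8.46 against 5.63 and 7.16 FPKM. Gsta3, Gstk1, Gstm5, Gstm7 and Gsto2 overlapped between the groups. Gstm1 did not, at 18.6 and 20.2 against 20.3 and 27.6 FPKM, with DKO replicate 2 next to control replicate 1. Gstm4 overlapped, and Gstm6 was at 1.95 and 2.26 against 2.49 and 2.30 FPKM, with no overlap. Over the 17 tested members not chosen by the rule for full values, adjusted p in limma ranged from 0.550 to 0.986.

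Microsomal transferases sit in membranes. Mgst1, which has transferase and peroxidase activity, was among the most abundant members at 116 and 134 FPKM in the DKO pair and 106 and 130.3 in the control pair (log2 difference 0.09, standard error 0.147, adjusted p = 0.844 from limma). Mgst3 was at 20.9 and 16.7 against 11.1 and 23.6 FPKM, with the control libraries outside the DKO libraries. Mgst2, which can form leukotriene C4, was low, at 1.16 and 0.633 FPKM in the DKO pair and 1.31 and 2.34 in the control pair (log2 difference -0.73, standard error 0.354, adjusted p = 0.551).

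**Figure D4:**
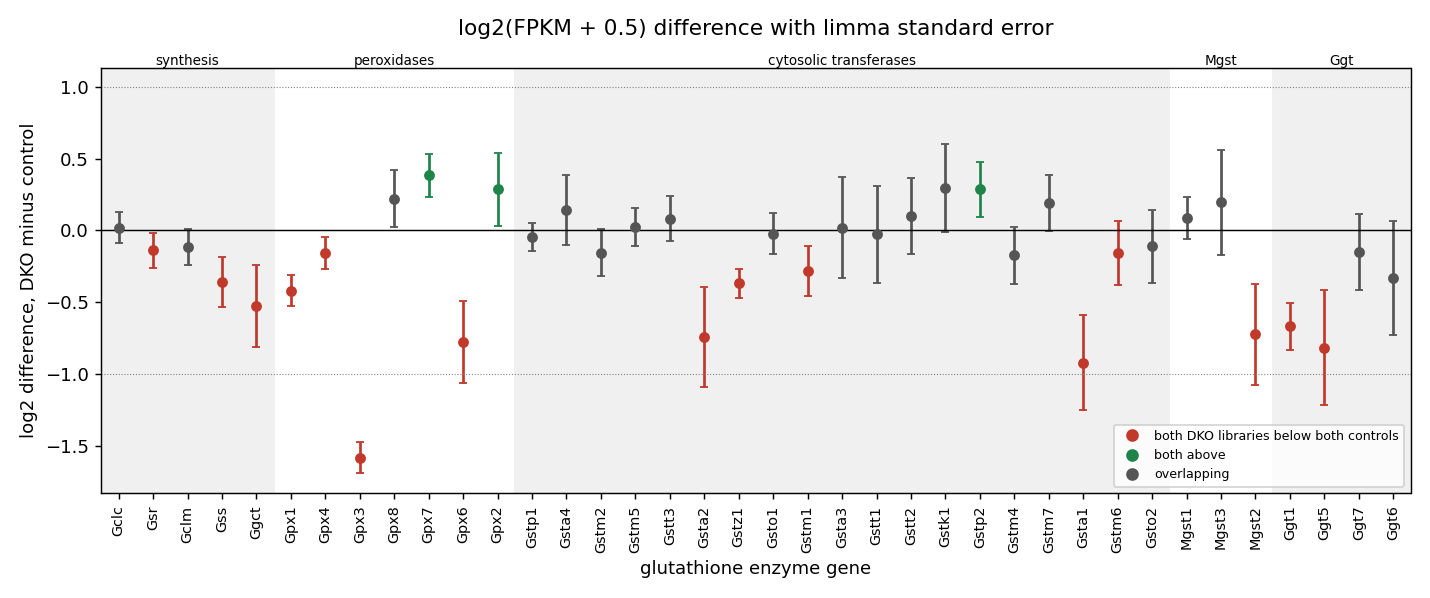
Log2 difference of log2(FPKM + 0.5), DKO minus control, for 38 glutathione enzyme genes by role, with limma standard errors and dotted lines at 2-fold. Red genes (15) have both DKO libraries below both controls, green genes (3) have both above and grey genes (20) overlap, and only Gpx3 at -1.59 is beyond the lower dotted line.

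The 2 control libraries differed from each other across these genes. Control replicate 1 was below control replicate 2 for 30 of the 38 members (78.9%), beside 45.3% of all genes tested, with a median log2 difference of control replicate 1 minus control replicate 2 of -0.30 against 0.02 over all genes. All 4 alpha-class genes, all 3 theta-class genes tested and all 3 microsomal transferases were lower in control replicate 1. For the DKO pair the median over the members was -0.06. Of the 20 members that overlapped between the groups, 10 had both DKO values between the controls, and in 10 of these control replicate 1 was the lower library. That pattern was not counted over all genes. Control replicate 1 was also the shallowest library. It had the lowest sum of ureteric and collecting duct markers, at 1316 FPKM against 1833 in control replicate 2. Its sum of macrophage markers was the highest, at 2148 against 1023 FPKM. The part of depth or of these markers in the member values was not tested. Leaving out control replicate 1 placed both DKO values below the remaining control for 27 members, beside 37.8% of all genes. Leaving out control replicate 2 did so for 17, beside 44.5%. With control replicate 1 left out 12 members were lower at an unadjusted p under 0.05 in limma, beside 8.78% of all genes, and with control replicate 2 left out 4 were lower and 8 higher, beside 15% and 9.1%. Without DKO replicate 1 there were 2 lower and 0 higher members at that level, beside 1.74% and 2.34% of all genes, and without DKO replicate 2 there were 1 and 0, beside 1.45% and 2.12%. None was called in any of these cases.

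**Figure D5:**
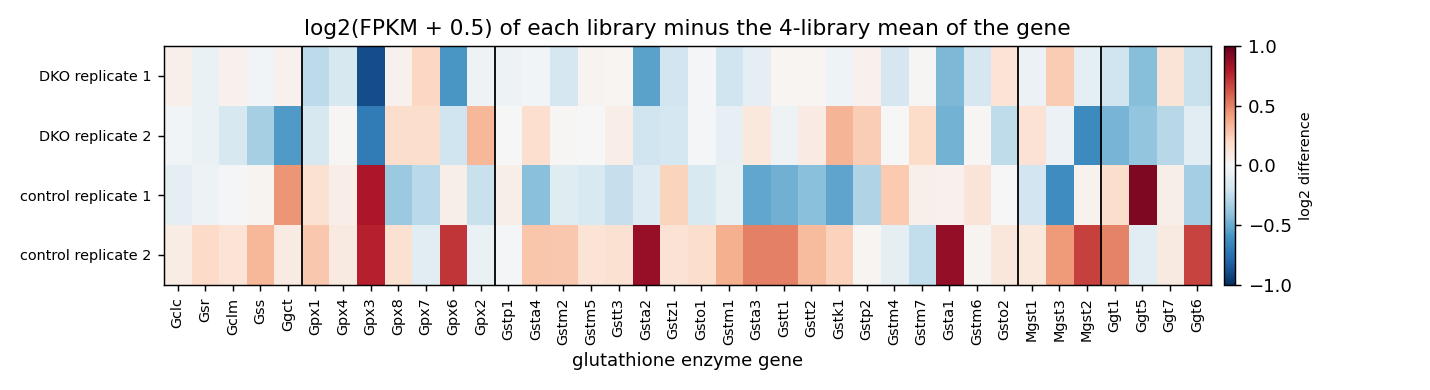
Level of each library as log2(FPKM + 0.5) minus the mean of the gene over 4 libraries, with the colour scale ending at -1 and 1. Gpx3 is low in both DKO libraries and high in both controls, while control replicate 2 is the highest library for the 4 alpha-class and 3 theta-class transferases.

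Genes that supply cysteine and turn over glutathione outside the members had both DKO values under the control pair for 14 of 24 genes and over it for 3. Of all genes 22.6% and 20.8% did so. The median log2 difference of the 24 was -0.30. In limma 0 of the 24 passed after adjustment. Before it 9 were under 0.05, all lower, beside 7.35% of all genes. Anpep, the brush-border aminopeptidase that splits the dipeptide left by Ggt1, was at 81.2 and 88.9 FPKM in the DKO pair and 121 and 157 in the control pair (log2 difference -0.69, standard error 0.155, adjusted p = 0.380 from limma). Slc3a1, a subunit of the transporter that takes up cystine in the proximal tubule, was at 13.2 and 10.7 against 21.2 and 24.1 FPKM. Dpep1, a dipeptidase of the same membrane, was at 1.47 and 1.57 against 2.63 and 3.15 FPKM. Slc7a9, the partner of Slc3a1 in that transporter, overlapped between the groups, at 4.01 and 2.27 against 2.84 and 4.99 FPKM, and so did Abcc2, an export pump for glutathione conjugates, at 4.28 and 3.07 against 4.14 and 7.29. Hpgds, a sigma-class transferase that makes prostaglandin D2, was at 9.09 and 3.64 FPKM in the DKO pair and 30.8 and 13.7 in the control pair. Its highest value was in control replicate 1, the library with the most macrophage marker RNA, whose part in the Hpgds values was not tested. Slc7a11, which brings cystine into stressed cells, was under 1 FPKM in all libraries, at 0.516 and 0.406 against 0.155 and 0.268. It was above both controls, as were Lap3, at 43.7 and 43.6 against 25.2 and 41.7 FPKM, and Abcc4, at 10.7 and 9.96 against 7.66 and 8.69.

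The genes of the Nrf2 response, thioredoxin and NADPH supply were closer to even, with a median log2 difference of -0.09. Of these 27 genes 11 were below both controls and 5 above, beside 22.6% and 20.8% of all genes. Again 0 passed in limma, and 3 had an unadjusted p under 0.05, all lower, beside 7.35% of all genes. Nfe2l2, which encodes Nrf2, the activator of many glutathione genes, was at 52.0 and 50.9 FPKM in the DKO pair and 69.6 and 63.2 in the control pair (log2 difference -0.36, standard error 0.1, adjusted p = 0.384 from limma). Nqo1, a classic Nrf2 target, was at 4.46 and 4.57 against 1.31 and 3.15 FPKM, and Txnrd1, the cytosolic thioredoxin reductase, at 41.0 and 42.6 against 38.6 and 41.7. Other genes of this list lay below both controls. Hmox1 was at 44.0 and 40.8 FPKM in the DKO pair and 139 and 52.1 in the control pair. Control replicate 1, the high library, also held the highest sum of macrophage markers. The part of that sum in the Hmox1 values was not tested. Srxn1 was at 8.48 and 8.67 against 10.3 and 10.6 FPKM. Sod3, the superoxide dismutase outside the cell, averaged 7.59 against 13.8 FPKM.

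Since Gpx3 is a selenoprotein, the genes of selenium supply and selenocysteine insertion were compared too. Of 15 genes 4 were below both controls and 1 above, beside 22.6% and 20.8% of all genes, with a median log2 difference of -0.03. In limma 0 passed, and 1 gene was lower at an unadjusted p under 0.05, beside 7.35% of all genes. That gene was Sepp1, the selenium carrier of plasma, at 163 and 156 FPKM in the DKO pair and 630.1 and 289 in the control pair (log2 difference -1.42, standard error 0.374, adjusted p = 0.384 from limma). Sephs2, which makes the selenium donor, was at 38.7 and 33.7 against 44.6 and 43.6 FPKM, and the elongation factor Eefsec at 8.89 and 9.79 against 9.51 and 9.52. Control replicate 1, which held the highest Sepp1 value, also held the highest sum of macrophage markers, and the part of that sum in the Sepp1 values was not tested.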

How the data were processed

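Per the methods and labels, the authors mapped paired-end reads to mm10 with the Ensembl release 72 transcriptome and deposited FPKM per gene. TopHat 1.4.1 and Cuffdiff 2.2.1 are listed in the processing notes of the submitters, and how Cuffdiff scaled the libraries is not stated there. Read totals are not used here, so depth is relative and was read from FPKM up to 0.3. In the copy used here 2 lines were empty. The deposited average columns were not used.

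Members were matched by symbol, and 41 of 41 were found in GENCODE M21, whose build is that of the files. FPKM are not counts, so limma 3.58.1 (R 4.3.3) was run on log2(FPKM + 0.5) with a variance trend over genes averaging above 0.1 FPKM in a group, and the scripts were tested on simulated data. The test understates changes of low genes. Values in every library are given for the 3 most abundant members of each role, for members whose groups do not overlap at an unadjusted p under 0.05, and for members with a ratio of at least 1.5 and at least 1 FPKM. That rule named 21, and others were added after their values were seen. Coding sequences were aligned with Biopython 1.88, and figures were drawn with matplotlib 3.10.9. The members, marker lists and pathway lists were chosen with earlier results of these data known. Some genes on the same strand as a member overlap it (Gclm, Gsr, Gstt3 and Mgst2), which the FPKM may not resolve. Each library is a pool of embryos, and p-values measure the spread between these pools only. Alternatives were other pseudocounts, filters, scalings and variance settings, a replicate block and each library left out.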

Additional observations from a re-analysis of the deposited data

How the results depend on the processing

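The count of 0 members called higher stood under 13 of 13 alternatives and that of 0 called lower under 12. With a replicate block 1 member, Gpx3, was called lower (adjusted p = 0.0385), and over all alternatives its adjusted p ranged from 0.0385 to 0.960 and its log2 difference from -1.68 to -1.46. Across all genes the block called 10 lower and 6 higher genes, against 1 and 3 without it, and over the other alternatives 0 to 1 lower and 0 to 6 higher (0 and 6 on the TPM scale). The replicate numbers of the labels give no shared source, and the deviations of same-numbered libraries had a correlation of 0.105 over 18884 genes, so the block was not treated as a pairing. The cause of the change was not tested.

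Rescaling to TPM moved the median log2 difference of all genes from -0.0092 to 0.11, and that of the members relative to all genes was -0.12 on both scales. On the TPM scale 39 members were tested, and 7 of them were below both controls, beside 13.8% of all genes. At an unadjusted p under 0.05 in limma 2 were lower on this scale, beside 4.8% of all genes. Before rescaling there were 6, beside 7.35%. Members higher at an unadjusted p under 0.05 numbered 0 with a pseudocount of 1, without a filter, without a variance trend and with the block. With each library left out in turn, 17 to 27 members were below both controls, 1 to 12 were lower and 0 to 8 higher at an unadjusted p under 0.05, and the median log2 difference ranged from -0.23 to -0.03. By definition the counts below both controls have fewer values to separate when a library is left out. The cause of the other changes was not tested.

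Of 272 values of the 21 members named by the rule under the alternatives, 260 kept direction and call. Gclm at 0.0138 and Gstp1 at 0.0865 changed sign on the TPM scale. With 1 library left out the sign changed for Gclc (-0.0621 to 0.0993), Ggt6 (-0.84 to 0.17), Ggt7 (-0.35 to 0.0541), Gsta4 (-0.20 to 0.49), Gstm2 (-0.35 to 0.0395), Mgst1 (-0.0601 to 0.23) and Mgst3 (-0.33 to 0.72), values that lie near 0 beside their standard errors. Control replicate 1, with 0.507 times the depth of DKO replicate 1, limits the precision of the low members.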
